A study of Homo sapiens with 8 samples.

Results

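The sites described here are those where the progesterone receptor (PR) was found after a progestin in T47D A1-2 cells, with 2 further conditions. PR was not called there in the other T47D line of the study after the same progestin. The glucocorticoid receptor (GR) was not called there in A1-2 cells after a glucocorticoid. They were chosen from peak lists of chromatin immunoprecipitation with sequencing (ChIP-seq), which recovers the DNA held by a protein with an antibody. Overlapping peaks of 3 lists were merged, namely PR of A1-2 cells after R5020, GR of A1-2 cells after dexamethasone (Dex) and PR of T47D MTVL WT cells after R5020. This made 51444 regions, of which 2926 held a peak of the first list only. Each of the 2926 was a single PR peak, and together they were 10.4% of the 28262 PR peaks of A1-2 cells that were used.

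T47D, an established line, derives from a human breast cancer of luminal type. A1-2 is its derivative described in the series as expressing both receptors, and it is known as a stable line that carries an introduced GR gene and a hormone-responsive reporter. MTVL WT, which the labels give as the control, is known as a T47D line with an integrated reporter of the same viral promoter. All cells were grown in serum stripped of hormones and then starved of serum. The groups used were PR in A1-2 cells after 60 min of 10 nM R5020 (a synthetic progestin), GR in A1-2 cells after 60 min of 10 nM Dex (a synthetic glucocorticoid), GR in A1-2 cells after 60 min of 10 nM R5020, PR and GR in untreated A1-2 cells, input DNA of A1-2 cells, and PR in MTVL cells after 60 min of 10 nM R5020 and untreated. Each condition had 1 library and each line is a single derived line, so differences between libraries have no replicate check, and p-values were not computed. The 95% intervals given treat peaks as units and cover counting error only, with exact (Clopper-Pearson) bounds for shares. Expression was not measured in these files, so receptor levels and line markers were not checked here.

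PR and GR are steroid receptors of the nuclear receptor family. On binding their hormone they attach to DNA as dimers, and both recognise the same palindromic hormone response element. In breast epithelium PR carries the growth and differentiation signal of progesterone, and most of its binding lies away from gene starts.

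The 3 lists the rule used differed in length. After peaks at input peaks were left out there were 28262 PR peaks of A1-2 cells, 18415 GR Dex peaks and 43070 PR peaks of MTVL cells. The score is the authors' own value for each peak, taken as 10 times the negative log10 of the p that the peak caller gave, so 100 is the threshold of 1e-10 and a higher score is a stronger call. The read depth was unknown, and how many peaks are called depends on it.

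The members were weak peaks. Their scores ran from 100.1 to 849.7 with a median of 127 (125 to 129). At the quartiles the scores were 111 and 158, and 90% of the members scored 205 or less. Of the 2926, 2065 (70.6%) scored below 150, 330 (11.3%) scored 200 or more, 8 scored 500 or more and 0 reached 1000. The other PR peaks of A1-2 cells were stronger. The median was 172 at the 1957 peaks that lay at GR Dex but not at MTVL PR, 193 at the 11722 peaks that lay at MTVL PR but not at GR Dex, and 544 at the 11657 peaks that lay at both. Of those 11657 peaks, 3564 scored 1000 or more. Scores belong to the same list as the rule, so this is a description and was not tested. Counts of these other classes are of peaks, since a merged region can hold several peaks.

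The share of members among PR peaks of A1-2 cells fell along the score in every decile. It was 32.9% (31.2 to 34.7) in the lowest decile, with scores up to 114, and 26.0% in the next. In the fifth decile it was 7.43%, and in the seventh 1.24%, which was 35 peaks. The ninth decile held 1 member, and the highest held 0 of 2827, which allows a share of up to 0.130%. Peaks at GR Dex but not at MTVL PR kept a more even share in the lower deciles, of 10.2% in the lowest and 8.78% in the fifth. It then fell to 3.82% in the eighth, 1.98% in the ninth and 0.707% in the highest.

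**Figure D1:**
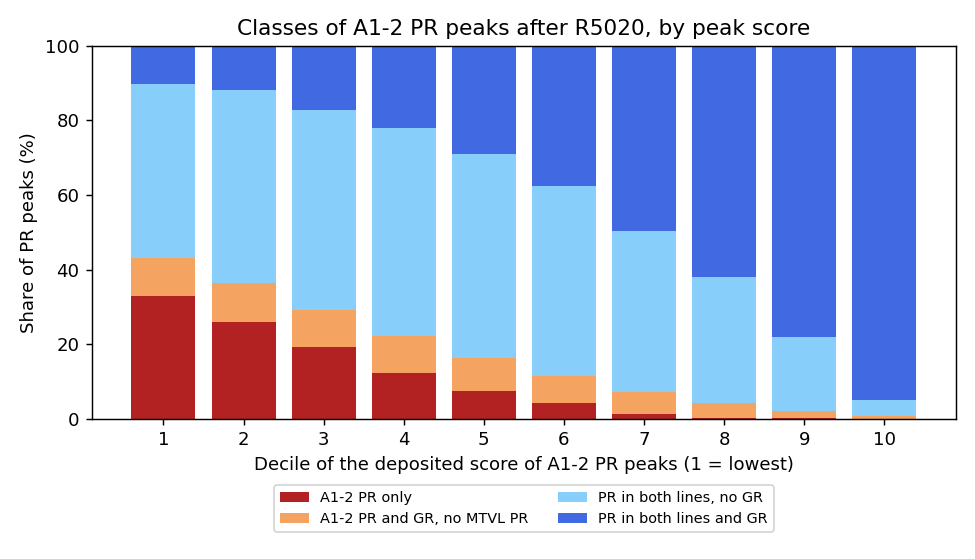
Stacked bars give the share (%) of each class among PR peaks of A1-2 cells after R5020, in deciles of the deposited score. The members are at the foot of each bar, with 32.9% of the lowest decile, 7.43% of the fifth and 0 of the highest.

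Members had the lowest median width of the classes of PR peaks. They spanned 588 bp in the median (582 to 594) and together covered 1.98 Mb. Peaks at MTVL PR without GR Dex had a median of 607 bp, those at GR Dex without MTVL PR 635 bp, and those at both 710 bp. Width goes with score, and up to the sixth score decile the members were wider at like score than PR peaks of both lines without GR Dex. Peaks at GR Dex without MTVL PR were not compared at like score. In the lowest score decile the members' median was 553.5 bp, against 518 bp for PR peaks of both lines without GR Dex. In the fifth it was 648 bp against 619 bp, and in each of the 6 lowest deciles the members' median was the higher. In the seventh, with 35 members, it was 642 bp against 668 bp. Outside the runs of close peaks described below the lowest decile gave 555.5 bp against 518 bp.

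The strongest member lay on chromosome 12 at chr12:125422999-125423486 in hg19, with a score of 849.7. Its nearest PR peak of MTVL cells was 7346 bp away and its nearest GR Dex peak 9615 bp away. Next came a site on chromosome 5 at chr5:92943080-92944005 (score 677), one on chromosome 2 at chr2:42963418-42964151 (score 676) and one on chromosome 16 at chr16:55786482-55787913 (score 662). The chromosome 2 site was 1891 bp from an MTVL PR peak, whereas the chromosome 16 site had its nearest peak of either other list 159589 bp away.

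On chromosome 7 a pair of strong members stood near each other, at chr7:57324556-57325363 (score 631) and chr7:57308201-57308559 (score 509). Of the other members among the 10 strongest, 3 lay on chromosome X, at chrX:50543994-50544878 (score 516), chrX:7922881-7923468 (score 504) and chrX:55020649-55021450 (score 497), and 1 on chromosome 18 at chr18:7417567-7418208 (score 438). None of these 10 overlapped a peak of the 4 lists that the rule did not use, as held for 96.4% of all members. No hg19 annotation was used here, so sites are named by position and not by gene.

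How far the members stood from the sites they were defined against varied widely. The nearest peak of either other list was 9987 bp away in the median (9319 to 10691), with quartiles of 2431 and 28885 bp. Within 1 kb of a peak of MTVL PR or GR Dex lay 400 members (13.7%, 12.4 to 15.0), within 10 kb 1465 (50.1%), and 181 (6.19%) had nothing within 100 kb. The share within 1 kb was 41.7% where only midpoints within 200 bp counted as shared, which lets overlapping peaks in, and 9.22% at a minimum score of 200 in each list. The median gap was 14400 bp to the nearest PR peak of MTVL cells and 23878 bp to the nearest GR Dex peak and 970 members (33.2%) were nearer to GR Dex. Peaks of both lines without GR Dex, which also lack GR Dex by their definition, had a median gap to it of 32116 bp (31000 to 33414), against 23878 bp (21831 to 26454) for the members. Within 10 kb of a GR Dex peak lay 33.5% (31.7 to 35.2) of the members and 27.4% (26.6 to 28.2) of those peaks. The gap to MTVL PR went the same way. Its median was 14400 bp (13354 to 15401) for the members and 17427 bp (15778 to 19440) for peaks at GR Dex without MTVL PR. Within 10 kb of an MTVL PR peak lay 41.7% (39.9 to 43.5) and 38.9% (36.7 to 41.1). These gaps are to lists that the rule used, so both comparisons are descriptions. Neither was made within score deciles or outside the runs of close peaks described below. Those runs held 15.7% of peaks at GR Dex without MTVL PR and 2.39% of the members. Most members in them lay on chromosome 16, where 33 to 36 Mb had 3 MTVL PR peaks.

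**Figure D2:**
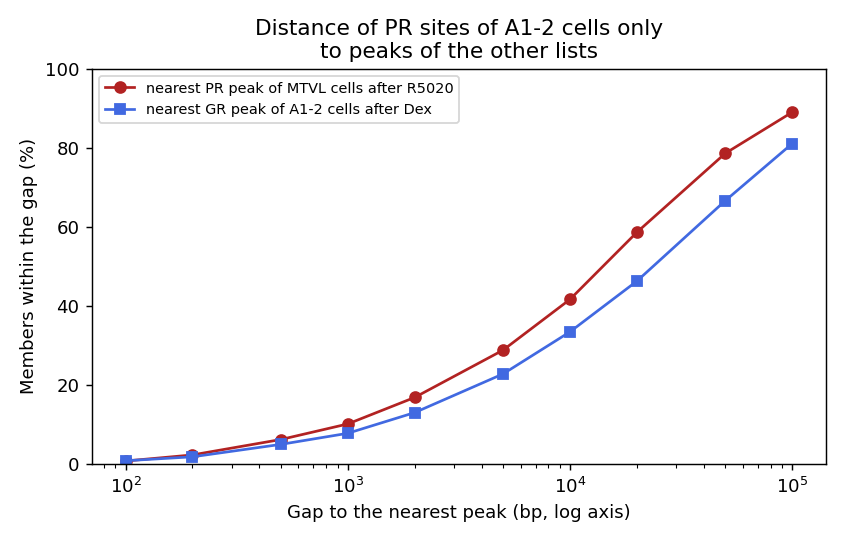
The curves give the share (%) of the 2926 members that have a peak of the named list within a gap (bp, log axis). At a gap of 10 kb 41.7% had an MTVL PR peak and 33.5% a GR Dex peak.

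At the edge of the rule the distances were of a few bases. The member on chromosome 14 at chr14:89002062-89002557 (score 105) ended 2 bp from an MTVL PR peak, and the one on chromosome 20 at chr20:31565198-31566105 (score 154) 5 bp from a GR Dex peak. The next 3 by gap, on chromosomes 1, 7 and 11, were 7 bp away. Just outside the rule, the PR peak on chromosome 11 at chr11:122407390-122408160 (score 234) overlapped a GR Dex peak by 10 bp, and the one on chromosome 20 at chr20:48759217-48760281 (score 122) overlapped an MTVL PR peak by 10 bp.

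Members were scattered among the PR sites of A1-2 cells, but had another member as neighbour more often than PR sites of both lines did. The nearest other PR peak of A1-2 cells was 12379 bp away in the median, against 11409 bp over all PR peaks. That neighbour was itself a member for 16.7% (15.4 to 18.1) of members, 16.6% (14.9 to 18.3) of peaks at GR Dex without MTVL PR, 8.41% (7.92 to 8.93) of peaks of both lines without GR Dex and 8.87% (8.36 to 9.40) of peaks of both lines with GR Dex. Outside runs of close peaks the values were 16.5%, 17.0%, 8.42% and 8.86%. Outside chromosomes 11, 14, 16, 19, 20 and X, which held more than their part of the members, they were 13.6%, 12.7%, 6.97% and 7.21%. Members were 10.4% of all PR peaks of A1-2 cells. A PR peak of both lines with GR Dex stood within 10 kb of 22.5% (21.0 to 24.1) of members and of 22.7% (22.0 to 23.5) of peaks of both lines without GR Dex, and the odds ratio between these within score deciles was 1.04 (0.935 to 1.15). Of peaks at GR Dex without MTVL PR 24.8% (22.9 to 26.8) had such a peak within 10 kb, and the members' odds ratio against them within score deciles was 0.860 (0.744 to 0.995).

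Most members stood alone. Joined over gaps of at most 20 kb, they made 2353 single sites, 197 pairs and 34 groups of 3, and the longest stretch held 15. That stretch lay on chromosome 16 at chr16:35035244-35144980. It held 36 GR R5020 peaks, 9 untreated GR peaks, 9 untreated PR peaks and 23 GR Dex peaks of A1-2 cells, and 0 PR peaks of MTVL cells. The next held 7 members on chromosome 15 at chr15:39877348-39942347, with scores from 109 to 347. It had 10 PR peaks of A1-2 cells in all, 2 GR Dex peaks, 4 MTVL PR peaks and 0 peaks of the untreated and GR R5020 lists. A tie of 2 stretches with 6 members came next, both on chromosome 16, at chr16:34602764-34630784 and chr16:34957780-34986637. Outside chromosome 16, a stretch on chromosome 1 at chr1:47370984-47406358 held 5 members and no other peak of any list. That stretch was named after its values were seen.

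Crowded stretches of the genome, called runs of close peaks, were taken over from an earlier analysis of these data. A run is 5 or more peaks of the GR R5020 list, or of either untreated list of A1-2 cells, each at most 20 kb from the next, and there were 33. They held 70 members (2.39%, 1.87 to 3.01), 59 of them on chromosome 16, against 1.45% of all PR peaks of A1-2 cells. Peaks at GR Dex without MTVL PR were in runs in 15.7% (14.1 to 17.4) of cases, and peaks of both lines without GR Dex in 0.145% (0.0845 to 0.232). Chromosome 16 from 33 to 36 Mb held 60 members among 263 PR peaks of A1-2 cells, with 271 GR Dex peaks, 318 GR R5020 peaks and 8 input peaks, and 3 PR peaks of MTVL cells. Since the runs move with each overlap given next, values are given with and without them.

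The rule did not use 4 lists, namely GR of A1-2 cells after R5020 and the untreated lists of PR and GR in A1-2 cells and of PR in MTVL cells. Few members lay at any of them, as did few PR peaks of A1-2 cells in general. Of all those PR peaks 2.08%, 1.33%, 0.835% and 0.796% lay at these lists, in the order given. In all 106 members (3.62%, 2.98 to 4.36) overlapped a peak of at least 1 of the lists and 2820 overlapped none. These joint counts were not made over all PR peaks, so they have no background. The peaks used were 1185 for GR after R5020, 630 for untreated PR and 394 for untreated GR in A1-2 cells. For untreated PR in MTVL cells they were 219. As deposited, these lists held 1198, 693, 455 and 221 peaks, in the same order.

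GR peaks after R5020 in A1-2 cells were found at 65 members (2.22%, 1.72 to 2.82), and the share over all PR peaks of A1-2 cells was 2.08%. The members were thus near the background, but the classes most like them stood far apart. The share was 14.7% (13.2 to 16.4) at PR peaks with GR Dex and no MTVL PR, and 0.273% (0.187 to 0.385) at PR peaks of both lines without GR Dex. The odds ratio of the members was 0.132 (0.0999 to 0.173) against the first of these and 8.30 (5.42 to 12.7) against the second. Within score deciles the ratios were 0.207 (0.153 to 0.280) and 12.6 (7.32 to 21.7). The runs held 45 of the 65. They are defined in part by GR R5020 peaks, so leaving them out removes such overlaps by construction. Outside them 20 members (0.700%, 0.428 to 1.08) lay at a GR R5020 peak, against a background of 1.16%. The odds ratio against PR peaks of both lines without GR Dex was then 2.57 (1.47 to 4.50). At PR peaks of both lines with GR Dex the share was 1.73%, and 1.62% outside the runs. Against that class outside the runs the members' odds ratio was 0.427 (0.269 to 0.679), and 6.19 (2.00 to 19.1) within score deciles. By its definition a member lacks a GR Dex peak, and 43.9% of the GR R5020 peaks lay at one, so a low share at the members was in part built in. Peaks of both lines must lie at an MTVL PR peak and members may not, and only 21.3% of the GR R5020 peaks lay at one. The odds ratios against peaks of both lines were thus also in part set by the rule.

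Of the members at GR R5020 peaks, the strongest stood on chromosome 16 at chr16:35111412-35112438 (score 329), in a run and at a GR R5020 peak of score 551. Outside the runs the strongest was on chromosome 6 at chr6:163537923-163538597 (score 301). The GR R5020 peak there had a score of 167 and nearly the same extent, from 163537939 to 163538593. The nearest MTVL PR peak was 1476 bp away and the nearest GR Dex peak 145638 bp away.

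Untreated PR peaks of A1-2 cells were found at 39 members (1.33%, 0.949 to 1.82), which equals the 1.33% of all PR peaks. The share was 9.10% (7.86 to 10.5) at PR peaks with GR Dex and no MTVL PR and 0.879% (0.718 to 1.06) at PR peaks of both lines without GR Dex. Against the peaks of both lines the odds ratio of the members was 1.52 (1.05 to 2.21) and 2.22 (1.48 to 3.34) within score deciles. Its interval reached below 1 without chromosome 16 (1.43, 0.956 to 2.14). Outside the runs the untreated PR shares were 1.12% (0.768 to 1.58) at the members, 3.21% at peaks with GR Dex and no MTVL PR, and 0.735% at peaks of both lines without GR Dex, with 0.783% over all PR peaks. By its definition a member lacks a GR Dex peak, and 54.4% of the untreated PR peaks and 71.6% of the untreated GR peaks of A1-2 cells lay at one, so the contrast with the peaks at GR Dex was largely fixed by the rule for both lists. At an MTVL PR peak, which peaks of both lines require and members lack, lay only 31.9% and 13.5% of them. The contrast with peaks of both lines was thus also in part set by the rule. The runs are also defined in part by these lists, so leaving the runs out lowers these overlaps by construction. Untreated GR peaks lay at 20 members (0.684%, 0.418 to 1.05), against 0.835% of all PR peaks, 8.79% (7.57 to 10.1) of peaks with GR Dex and no MTVL PR, and 0.0682% (0.0295 to 0.134) of peaks of both lines without GR Dex. Outside the runs the untreated GR shares were 0.455%, 3.15% and 0.0683% in the same order of classes, with 0.363% over all PR peaks.

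Together 50 members lay at an untreated peak of either receptor in A1-2 cells, and 9 at both. These counts were not made over all PR peaks of A1-2 cells, so they have no background. The strongest member with an untreated peak was on chromosome 16 at chr16:16190243-16191109 (score 331), at an untreated GR peak of score 108. A member on chromosome 14 at chr14:90862679-90863824 (score 308) lay at an untreated PR peak of score 125 and an untreated GR peak of score 123, and it was outside the runs.

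Untreated PR peaks of MTVL cells lay at 2 members (0.0684%, 0.00828 to 0.247), against 0.796% of all PR peaks of A1-2 cells. Of the 219 untreated MTVL peaks 218 lay at an MTVL PR peak after R5020, which no member may touch, so the low share was nearly fixed by the rule. The 2 members stood side by side on chromosome 17, at chr17:8124129-8124535 (score 153) and chr17:8124569-8125185 (score 154). Both overlapped 1 untreated MTVL peak, from 8124388 to 8126723 with a score of 176, and both also lay at an untreated PR peak of A1-2 cells. The second of them was 112 bp from an MTVL PR peak called after R5020.

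**Figure D3:**
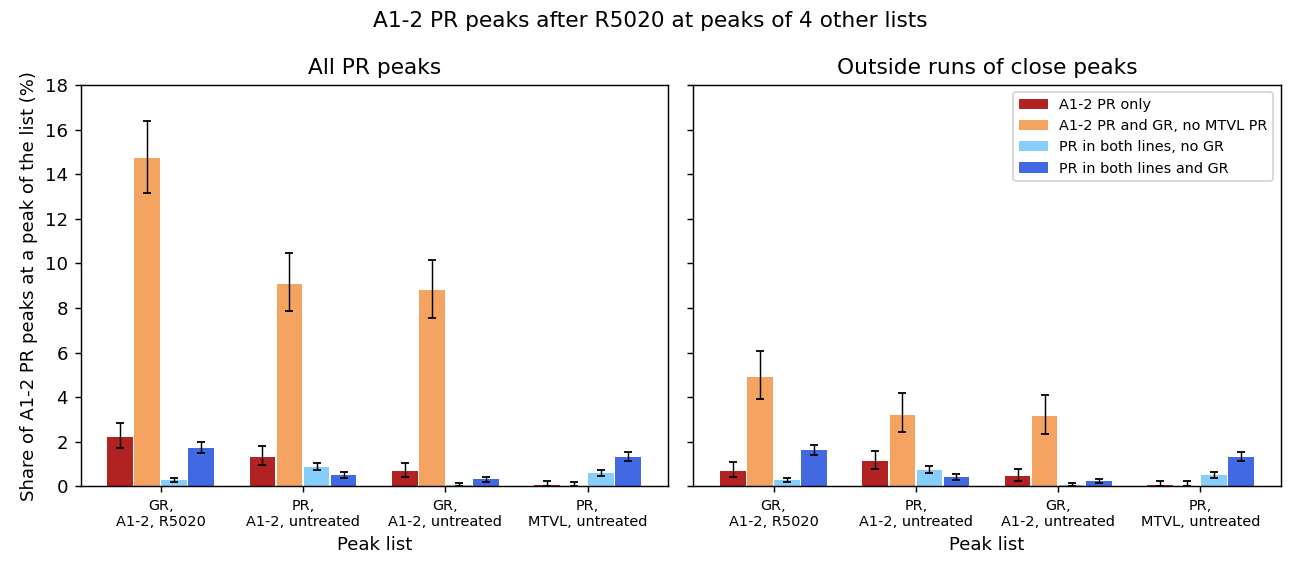
Bars give the share (%) of PR peaks of A1-2 cells after R5020 that overlap a peak of each of 4 lists, by class, with exact 95% intervals over peaks, for all peaks (left) and outside runs of close peaks (right). The members stay at or under 2.22% in each list, below the peaks with GR Dex and no MTVL PR in the 3 lists of A1-2 cells.

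The members were spread unevenly over the chromosomes. They made up 19.3% (17.2 to 21.4) of the PR peaks of A1-2 cells on chromosome 14, 19.0% (16.7 to 21.5) on chromosome 20, 18.2% (16.3 to 20.3) on chromosome 16 and 16.1% (14.4 to 17.9) on chromosome 11, against 10.4% over all chromosomes. Chromosomes X and 19 followed with 13.9% (11.4 to 16.8) and 13.9% (11.4 to 16.7). The share was lowest on chromosome 21, with 8 of 242 PR peaks (3.31%, 1.44 to 6.41), and on chromosome 17, with 5.79% (4.32 to 7.59).

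Of 23 chromosomes compared, 6 held a larger part of the members than of the other PR peaks of A1-2 cells, with intervals above 1, and 11 held a smaller part, with intervals below 1. These intervals were not adjusted for the 23. The 6 chromosomes were 11, 14, 16, 19, 20 and X, and they held 41.4% of the members and 24.9% of all PR peaks of A1-2 cells. Chromosome 16 held 9.16% of the members and 4.75% of the other PR peaks, a ratio of 1.93 (1.70 to 2.19), with 5.21% of all PR peaks. Chromosome 20 held 6.94% and 3.42%, a ratio of 2.03 (1.75 to 2.35), with 3.79% of all PR peaks. Within score deciles, as odds ratios, these were 2.37 (2.02 to 2.77) and 2.27 (1.90 to 2.72), and the same 6 chromosomes had intervals above 1. Intervals below 1 were then left on 10 chromosomes, without chromosome 8 (0.825, 0.677 to 1.006). Of the input peaks, chromosomes 14, 20 and 16 held 2.96%, 1.82% and 4.70%. Of the PR peaks of MTVL cells after R5020 they held 3.45%, 2.40% and 2.90%. A member may not lie at those PR peaks, so the members' shares depend in part on that list. Over the 23 chromosomes, the part of the members and the part of the input peaks that each held had a Spearman correlation of 0.46 and a Pearson correlation of 0.30, given as a description, since both are counts over the same chromosomes. Copy number of the chromosomes in either line was not analysed here, and its part in these shares was not tested.

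**Figure D4:**
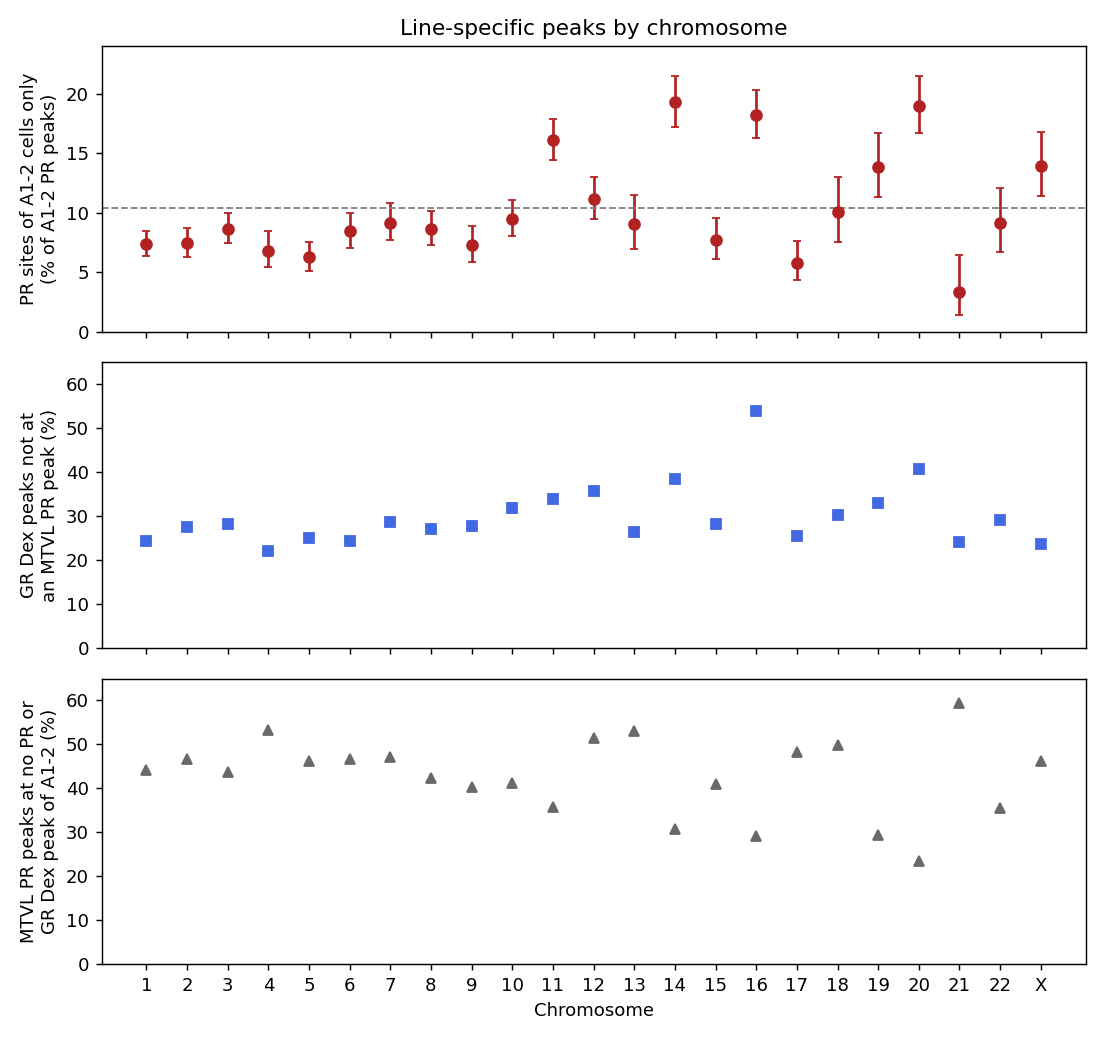
By chromosome, points give the members as a share (%) of PR peaks of A1-2 cells with exact 95% intervals (top, the dashed line at 10.4% being all chromosomes), GR Dex peaks that lie at no MTVL PR peak (%, middle) and MTVL PR peaks that lie at no PR or GR Dex peak of A1-2 cells (%, bottom). Chromosomes 14, 16 and 20 are high in the upper panels and low in the bottom one. The value of chromosome 16 in the middle panel includes the stretch from 33 to 36 Mb, with 271 GR Dex peaks and 3 MTVL PR peaks.

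Other lists varied over the chromosomes along with the members. On chromosomes 14, 16 and 20, 38.4%, 54.0% and 40.8% of the GR Dex peaks lay at no MTVL PR peak, and 30.9%, 29.1% and 23.5% of the MTVL PR peaks lay at no PR or GR Dex peak of A1-2 cells. The 54.0% includes chromosome 16 from 33 to 36 Mb, which held 271 GR Dex peaks and 3 MTVL PR peaks. Neither these shares nor the correlations below were computed without that stretch. On chromosome 4 the values were 22.1% and 53.2%, and on chromosome 21 24.1% and 59.4%. Chromosome X went another way, with 23.7% of GR Dex peaks at no MTVL PR peak and 46.3% of MTVL PR peaks at none of A1-2 cells. Over the 23 chromosomes, the members' share had a Spearman correlation of 0.77 with the first of these measures and of -0.55 with the second (Pearson 0.79 and -0.78). With the share of GR Dex peaks at no PR peak of either line the values were 0.64 (Spearman) and 0.65 (Pearson). These are descriptions, since the measures share the MTVL list and the A1-2 line, and chromosomes are not replicates.

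Against the classes most like the members, the chromosomes differed. Outside runs of close peaks chromosome 14 held 9.35% of the members, 7.45% of peaks with GR Dex and no MTVL PR, and 3.74% of peaks of both lines without GR Dex. The ratio was thus 1.25 (1.02 to 1.54) over the class that MTVL cells also lack and 2.50 (2.16 to 2.89) over the class of both lines. On chromosome 20 these ratios were 1.096 (0.874 to 1.37) and 2.61 (2.20 to 3.09), on chromosome 16 0.951 (0.769 to 1.18) and 2.37 (2.01 to 2.79), and on chromosome 11 1.09 (0.900 to 1.31) and 1.99 (1.73 to 2.27). With the runs kept, the ratios over peaks with GR Dex and no MTVL PR had intervals that left out 1, at 0.535 (0.460 to 0.622) on chromosome 16, 1.26 (1.04 to 1.52) on chromosome 11 and 1.26 (1.003 to 1.58) on chromosome 20. Chromosome 19 showed the reverse order. It held 3.29% of the members, 1.64% of peaks with GR Dex and no MTVL PR, and 2.77% of peaks of both lines without GR Dex, with ratios of 2.01 (1.32 to 3.07) and 1.19 (0.949 to 1.49). Chromosome X did not divide in this way, with ratios of 1.32 (0.922 to 1.90) and 1.37 (1.09 to 1.73), and with the runs kept its ratio over peaks with GR Dex and no MTVL PR was 1.53 (1.07 to 2.20). The 6 chromosomes were picked for this after their shares were seen.

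**Figure D5:**
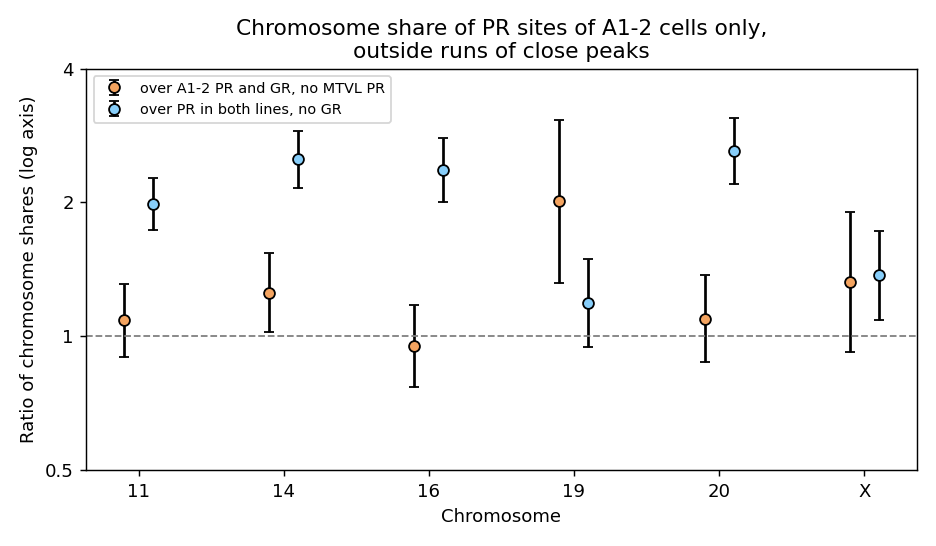
Points give the share of members on a chromosome over the share of another class of A1-2 PR peaks there (log axis), with 95% intervals over peaks, outside runs of close peaks. On chromosomes 11, 16 and 20 the ratio over peaks with GR Dex and no MTVL PR has an interval that holds 1, while the ratio over peaks of both lines without GR Dex lies between 1.99 and 2.61. With the runs kept, the first ratio is 1.26 on chromosomes 11 and 20 and 0.535 on chromosome 16, with intervals that leave out 1.

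Along the chromosomes the members were widespread. Of 593 windows of 5 Mb with a PR peak of A1-2 cells 515 held a member, with a median of 4 and at most 66. The fullest window was chromosome 16 from 30 to 35 Mb, with 66 members among 278 PR peaks of A1-2 cells and 30 PR peaks of MTVL cells. Next was the end of the same chromosome from 0 to 5 Mb, with 49 members among 176 PR peaks of A1-2 cells and 109 of MTVL cells. On chromosome 11 adjoining windows from 60 to 65 Mb and from 65 to 70 Mb held 45 members of 132 PR peaks (34.1%) and 46 of 193 (23.8%). Chromosome 12 from 50 to 55 Mb held 45 members of 180 PR peaks (25.0%), on a chromosome whose share over its whole length was 11.1%. That window also held 15 input peaks. The chromosome 16 windows held 13 and 7 and the chromosome 11 windows 6 and 4, in the order given. These windows were named after their counts were seen.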

How the data were processed

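ChIP-seq peak lists of 8 libraries were used, with 1 library per condition. Per the submitters' processing notes the tools were Bowtie 1.1.1, MACS 1.4.2 and bedtools with the hg19 build. Their settings, the control library, filters on reads and the depth: not given in the sources used here. The deposited files hold, per peak, a position and a score, which is the authors' own value and served for description, ranks and minimum scores, with levels not compared between lists. Libraries were not pooled.

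Samples were grouped by title. Peaks outside chromosomes 1 to 22 and X, or at an A1-2 input peak, were left out; an MTVL input was not used here. The 3 lists were merged at an overlap of at least 1 bp. PR peaks of A1-2 cells were classed by the same overlap. Positions count from 1. Shares have exact intervals, and odds ratios have 95% intervals, also as Mantel-Haenszel ratios within 10 strata of the score. Differences of chromosome shares are ratios with log-scale intervals. Sites named are the strongest members, those nearest to the edge of the rule, the strongest at the lists not used by the rule, and the 3 stretches with most members, where a tie for the last place gave 4. The other stretch and the windows were named after their values were seen. The members, lists and runs were chosen with earlier results of these data known. The planned motif and gene counts needed a genome or annotation of the hg19 build and were not run. Classing, gaps and odds ratios were also tested on simulated data.

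Alternatives were a score of at least 200, input peaks kept, other rules of overlap, PR lists of equal length, and leaving out runs or sites at untreated peaks. Strata of chromosomes, score strata for the chromosome shares and leaving out chromosome 16 were added after seeing the data. Computations used Python 3.11.15, numpy 2.4.6, pandas 2.3.3, scipy 1.17.1, statsmodels 0.14.6 and matplotlib 3.10.9.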

Additional observations from a re-analysis of the deposited data

How the results depend on the processing

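No paired analysis was possible because each condition had 1 library. Over 16 results and 146 alternatives, 93 stayed within the main 95% interval, or within 1.5 times for the number of members, 53 moved further, and 0 reversed. Only odds ratios and ratios could be counted as reversed, by crossing to the other side of 1. Shares, medians and the number of members could not. Below, "GR odds" and "PR odds" are the odds ratios of the members against PR peaks of both lines without GR Dex at GR R5020 and at untreated A1-2 PR peaks, and "A1-2 odds" is that at GR R5020 peaks against PR peaks with GR Dex and no MTVL PR.

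With PR lists of equal length, which shortens the MTVL list, there were 5219 members (18.5% of PR peaks). They were at GR R5020 peaks in 1.32% and in runs in 1.48% of cases, the ratios on chromosomes 16 and 20 were 1.39 and 1.74, GR odds were 4.50 and PR odds 2.28. With midpoints within 200 bp, 15.3% of PR peaks were members, at GR R5020 peaks in 4.23%, at untreated PR and GR peaks of A1-2 cells in 3.14% and 2.36%, at untreated MTVL PR peaks in 0.508% and in runs in 4.66% of cases. The ratio on chromosome 20 was then 1.52, PR odds 3.57 and A1-2 odds 0.441. With a minimum score of 200 for all lists there were 1377 members (8.30%), at untreated GR peaks in 0.145% and at untreated MTVL PR peaks in 0% of cases. Only 329 of these were among the 2926, since raising the threshold also shortens the lists a member must avoid.

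Counting gaps of up to 1 kb as shared left 2526 members (8.94%), at GR R5020 peaks in 1.23%, at untreated MTVL PR peaks in 0% and in runs in 1.15% of cases. GR odds were 4.78, A1-2 odds 0.0643 and the ratio on chromosome 16 was 1.66. PR odds were 1.17 (0.755 to 1.80), and within chromosomes 1.43 (0.967 to 2.11). Without runs 0.700% lay at GR R5020 peaks and GR odds were 2.57. Without chromosome 16, 9.92% of PR peaks were members, at GR R5020 peaks in 1.09% and in runs in 0.414% of cases, with GR odds of 4.03. Without sites at untreated peaks A1-2 odds were 0.283. Within score deciles A1-2 odds were 0.207, PR odds 2.22 and the odds ratio for chromosome 16 was 2.37. An overlap of 50% of the shorter peak and keeping input peaks kept every result within the main interval. The unknown depth limits every count of members, as 70.6% of them scored below 150.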
